A study of Caenorhabditis elegans with 4 samples.

Results

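A set of 7 loci of C. elegans, C38D9.2, F15D4.5, C55C3.3, F07B7.2, Y59E9AR.1, ZK1248.4 and C06C3.5, had ratios above 4-fold on every array that compared gonad RNA of a cde-1 mutant with that of wildtype. They were chosen by that threshold, a deposited log10 ratio above 0.602 on all 4 arrays, and are 7 of the 2222 named genes with a ratio on all 4 arrays. The mutant carried the allele tm1021 of cde-1 and the wildtype was N2; both were grown by standard culture, and 250 gonads were dissected and pooled for a sample. Mutant and wildtype of the same stage, young adult or aged adult, were hybridised together, and each pair was run in both dye orientations. The arrays are called young Cy5, young Cy3, aged Cy5 and aged Cy3 after the stage and the dye on the mutant cDNA. Since 1 RNA sample stood for a genotype at a stage, the 2 arrays of a stage are technical repeats and n = 2 stages below. An SD over the 2 stage means thus holds the difference between stages and is no measure of error between repeats. The labels give no age in days, and one allele stands for the loss of cde-1. Because the same 4 ratios chose the genes, the ratios are given as a description, with no test.

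CDE-1 is a nucleotidyltransferase that adds uridines to the small interfering RNAs carried by the Argonaute protein CSR-1 in the germline. CSR-1 and its small RNAs are matched to genes that the germline expresses, whereas another branch, the WAGO Argonautes, uses secondary small RNAs made by RNA-dependent RNA polymerases to silence transposons, pseudogenes and some coding genes. Piwi-interacting RNAs, bound by PRG-1, recruit the polymerases that make many of these secondary small RNAs. No small RNA was measured on these arrays, and the sources used here place none of the 7 loci in a small RNA pathway, so no such link is stated for any of them.

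The sign of the deposited ratios was not stated. All 7 genes were positive in both orientations as deposited, and the ratios are given in the direction called likely, mutant over wildtype. The basis is only the number format: scientific notation was used for all 11541 and 12418 nonzero values of the young and aged Cy5 arrays and for 0 of the 10775 and 12704 of the Cy3 arrays. This shows that the columns were handled differently, not which was turned. Turning the sign would make every higher value below a lower one. If neither orientation had been turned before deposit, the difference between orientations divided by 2 would carry the genotype effect, and the 7 genes would then lie between -0.93 for F15D4.5 and 0.42 for C55C3.3 in log2 units, with 0 of them past 4-fold. As deposited, orientations differed over all 2222 genes by a median of 0.41 log2 units in young and 0.66 in aged adults. The stages differed by a median of 0.82. Neither reading was tested against these values. The cell makeup of the gonads could not be checked, since 0 of 61 marker genes of sperm, oocytes, intestine, muscle and sheath, and hypodermis had a named probe and ratios hold no levels. In such pooled tissue, a different number of cells of a type and a different amount of RNA per cell cannot be told apart.

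Of the loci, 6 are annotated as protein coding and C06C3.5 as a pseudogene in WBcel235. C06C3.5, F15D4.5 and ZK1248.4 lie on chromosome II, C55C3.3 and Y59E9AR.1 on chromosome IV, and C38D9.2 and F07B7.2 on chromosome V. Of the genes with a ratio on all 4 arrays, chromosomes II, IV and V held 18.1%, 17.1% and 17.6%, and chromosomes I, III and X, which held 0 of the 7, had 18.3%, 17.6% and 11.2%. None of the 7 has a gene name beyond its sequence name, which was also true of 6532 of the 7718 named probes. Each was measured by 1 probe, so agreement between probes could not be examined. Among named genes with several probes on an array, the pooled SD between probes of a gene was 0.31 and 0.53 log2 units on the young arrays and 0.91 and 0.55 on the aged arrays. Here and in the following values the Cy5 array of a stage is given before its Cy3 array.

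C38D9.2, a protein coding gene without a described function in the sources used here, had the largest mean ratio of the 7. Its log2 ratios were 5.71 and 4.65 on the young arrays and 5.35 and 6.68 on the aged arrays. The aged Cy3 array was the highest and the young Cy3 array the lowest, which put C38D9.2 between 25.1-fold and 102-fold. Its mean was 5.60 ± 0.59 log2 units (SD, n = 2 stages), a 48.4-fold ratio. It ranked at position 1 among the 2222 genes on 3 arrays and at position 3 on the young Cy3 array.

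F15D4.5 had log2 ratios of 4.95 and 5.38 on the young arrays and of 2.33 and 5.61 on the aged arrays. The aged Cy5 array thus stood below the other arrays, and the aged orientations were 3.28 log2 units apart, the widest gap among the 7 genes. The mean was 4.57 ± 0.84 log2 units (SD, n = 2 stages), a 23.7-fold ratio, and 5.39 without that array. On the same array F15D4.5 ranked 103 of 2222, against ranks of 3, 1 and 2 on the others. Its annotated span overlaps 2 piRNA genes, a feature shared with 3.74% of the genes with a ratio on all 4 arrays; the table used here gives no strand for them.

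C55C3.3 had log2 ratios of 4.05 and 3.42 on the young arrays and of 4.78 and 3.72 on the aged arrays. In both stages the Cy5 array was the higher one, and the lowest of its 4 values was 10.7-fold. The mean was 3.99 ± 0.36 log2 units (SD, n = 2 stages), a 15.9-fold ratio. It ranked at position 3 by the mean and at position 2 on the aged Cy5 array.

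F07B7.2 has the histone genes his-53 and his-28 at positions -5 and 5 in the order of coding genes and pseudogenes. Its log2 ratios were 3.65 and 3.24 on the young arrays and 2.64 and 4.32 on the aged arrays. The stage means were almost equal, at 3.44 and 3.48, although the aged orientations on which one of them rests differed by 1.68 log2 units. The mean of 3.46 ± 0.025 log2 units (SD, n = 2 stages), an 11.02-fold ratio, therefore has a smaller stage spread than its arrays have. Leaving out 1 array gave means from 3.04 to 3.88.

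Y59E9AR.1 had the most even ratios of the 7 genes. Its log2 ratios were 3.39 and 3.36 on the young arrays and 2.96 and 3.39 on the aged arrays, a range of 0.43 log2 units. Only the aged Cy5 array lay lower than the rest, and the mean was 3.27 ± 0.14 log2 units (SD, n = 2 stages), a 9.67-fold ratio.

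ZK1248.4 had log2 ratios of 3.23 and 3.99 on the young arrays and of 2.43 and 3.17 on the aged arrays. The Cy3 array was the higher one in both stages, by 0.76 and 0.74 log2 units. Its young ratio was above its aged one, at 12.2-fold against 6.96-fold, and the mean was 3.20 ± 0.57 log2 units (SD, n = 2 stages), a 9.2-fold ratio. At position -2 from it in the order of coding genes and pseudogenes lies wago-5, which encodes an Argonaute of the WAGO branch and had no named probe.

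C06C3.5, the pseudogene, had log2 ratios of 2.80 and 2.51 on the young arrays and of 2.85 and 2.23 on the aged arrays. It was the lowest of the 7 genes by the mean, at 2.60 ± 0.082 log2 units (SD, n = 2 stages), a 6.06-fold ratio, with values from 4.69-fold to 7.23-fold. Pseudogenes made up 70 (3.15%) of the genes with a ratio on all 4 arrays. The annotated span of C06C3.5 overlaps the noncoding RNA gene C06C3.13, and 6.48% of the genes overlap such a gene. The labels do not state whether the probe can tell one strand from the other, so the ratio cannot be assigned to one of this pair.

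**Figure D1:**
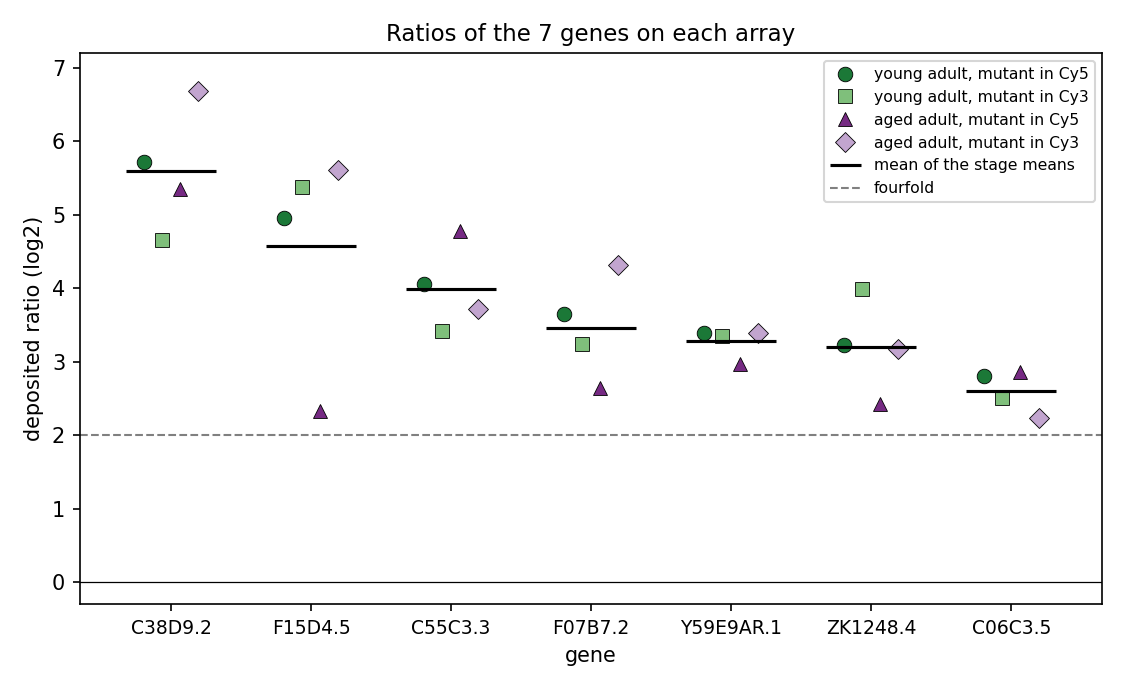
Deposited ratio on a log2 scale (vertical axis) for each of the 7 genes (horizontal axis), with 1 point per array, coloured by stage and dye orientation, a bar at the mean of the 2 stage means and a dashed line at 4-fold. All 28 points lie above the line, from 2.23 for C06C3.5 to 6.68 for C38D9.2, and the aged Cy5 array is the lowest of the 4 for F15D4.5, F07B7.2, Y59E9AR.1 and ZK1248.4.

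By the mean the order was C38D9.2, F15D4.5, C55C3.3, F07B7.2, Y59E9AR.1, ZK1248.4 and C06C3.5. Each gene's range over the 4 arrays overlapped that of the next gene. At the level of the 2 stage means, 4 of the 6 steps did not overlap, the exceptions being F15D4.5 over C55C3.3 and Y59E9AR.1 over ZK1248.4. The step from F07B7.2 to Y59E9AR.1 is among the 4, and the stage means of F07B7.2 moved with single arrays as given above. F07B7.2 was above Y59E9AR.1 on only 2 of the 4 arrays, at a difference of 0.19 log2 units, and Y59E9AR.1 and ZK1248.4 differed by 0.071. C38D9.2 was above F15D4.5 on 3 arrays and 1.03 log2 units above it by the mean.

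The stages gave like values for most of the 7 genes. Aged ratios were above young ones for C38D9.2, C55C3.3 and F07B7.2 and below them for the other 4. These directions depended on single arrays for 5 of the 7 genes. Without the aged Cy5 array the direction turned for F15D4.5, Y59E9AR.1 and C55C3.3, without the aged Cy3 array for F07B7.2 and C06C3.5, without the young Cy5 array for C06C3.5 and without the young Cy3 array for F07B7.2. Only C38D9.2, higher in aged adults, and ZK1248.4, higher in young adults, kept their direction without any 1 array. The stage means of 6 genes differed by less than 1 log2 unit, and for F07B7.2, Y59E9AR.1 and C06C3.5 by less than 0.2. F15D4.5 was the exception, with a young mean of 5.17 and an aged mean of 3.97, the latter resting on the aged Cy5 array; the aged Cy3 array alone, at 5.61, lay above the young mean. The median absolute stage difference was 0.51 log2 units over the 7 genes and 0.82 over all 2222 genes. A rule that asks for high ratios in both stages limits this difference, so the contrast is a description.

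**Figure D2:**
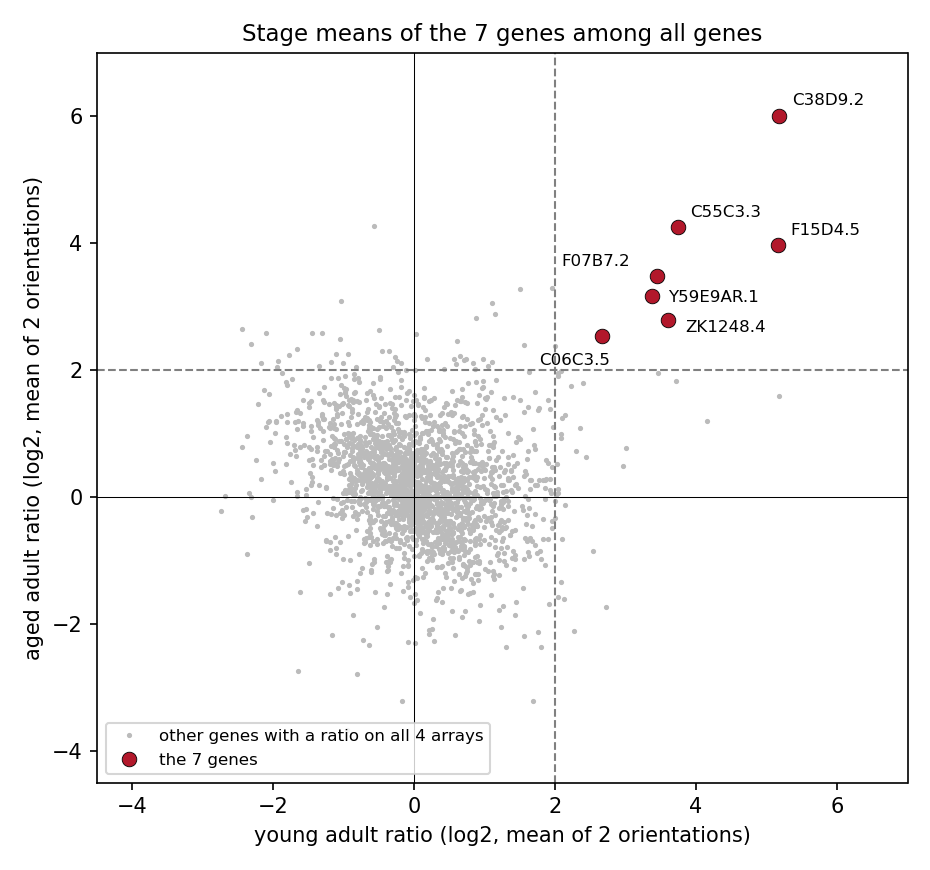
Mean log2 ratio of the 2 orientations in young adults (horizontal axis) and in aged adults (vertical axis) for the 2222 genes with a ratio on all 4 arrays, with the 7 genes in red and dashed lines at 4-fold. The 7 genes stand at the upper right, C38D9.2 the farthest out at 5.18 and 6.01, while the rest centre near 0, with a median of 0.025 in young adults and of 0.18 in aged ones.

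The dye orientations differed more in aged than in young adults for these genes. Their median absolute difference was 0.43 log2 units in young and 1.06 in aged adults, beside 0.41 and 0.66 over all 2222 genes. In aged adults C38D9.2, F15D4.5, C55C3.3 and F07B7.2 had orientations more than 1 log2 unit apart, and in young adults only C38D9.2 did, at 1.06. The aged Cy5 array had the widest ratios of the 4, with an SD of 1.40 log2 units over its probes against 0.86 to 0.97 on the others. It gave the lowest value for 4 of the 7 genes and for 19.8% of all 2222. Its part in the spread of the 7 genes was not tested.

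The 4-fold threshold was passed often on single arrays and seldom on all of them. On the young arrays 3.33% and 2.3% of the 2222 genes were above 4-fold, and on the aged arrays 7.83% and 1.62%. Both young arrays were above it for 25 genes (1.13%) and both aged arrays for 19 (0.855%). The 7 genes were 28.0% of the young list and 36.8% of the aged one. All 4 arrays were above it for 0.315% of the genes, which is the count the rule fixes, and 0 genes were beyond it on the low side on all 4. Another 7 genes passed on exactly 3 arrays, 32 on 2, 222 on 1 and 1954 on none. Without the aged Cy5 array, 11 genes were above 4-fold on the remaining 3 arrays: the 7 and T28F2.2, Y37H2A.11, ZK1010.5 and xdh-1. Leaving out any other single array gave 8.

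The same threshold was passed by unnamed probes, which had no gene symbol or more than 1. Of the 8323 probes with a ratio on all 4 arrays, 24 (0.288%) were above 4-fold on all of them. Of these, 17 were unnamed, from 6013 unnamed probes with a ratio on all 4 arrays (0.283%). The mean log2 ratios of the 17 unnamed probes ran from 2.48 to 3.81 with a median of 3.16, so C38D9.2, F15D4.5 and C55C3.3 stood above all of them. On the low side 1 probe (0.012%), an unnamed one, was beyond 4-fold on all 4 arrays. An unnamed probe may repeat one of the 7 genes, since probe sequences were not used here.

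The 5 genes just outside the threshold had lowest log2 ratios of 1.51 to 1.82. C06C3.5, F15D4.5 and ZK1248.4 were the members nearest to it, with lowest log2 ratios of 2.23, 2.33 and 2.43. Outside it, citk-1, a citron kinase homologue, reached 1.82, 2.08, 3.99 and 2.61 log2 units on the 4 arrays and failed only on the young Cy5 array. ZK1010.5 had 2.97, 2.41, 1.68 and 3.49 and failed only on the aged Cy5 array. F23A7.4, with 2.49, 2.29, 1.77 and 1.82, failed on both aged arrays. F42G8.8 and F35C5.1 passed on 2 arrays each, with lowest values of 1.57 and 1.51. The mean of citk-1, 2.63 log2 units, was above that of C06C3.5. By the mean alone 19 genes (0.855%) were above 4-fold, and 6 genes outside the 7 ranked at or above position 13, the rank of C06C3.5.

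**Figure D3:**
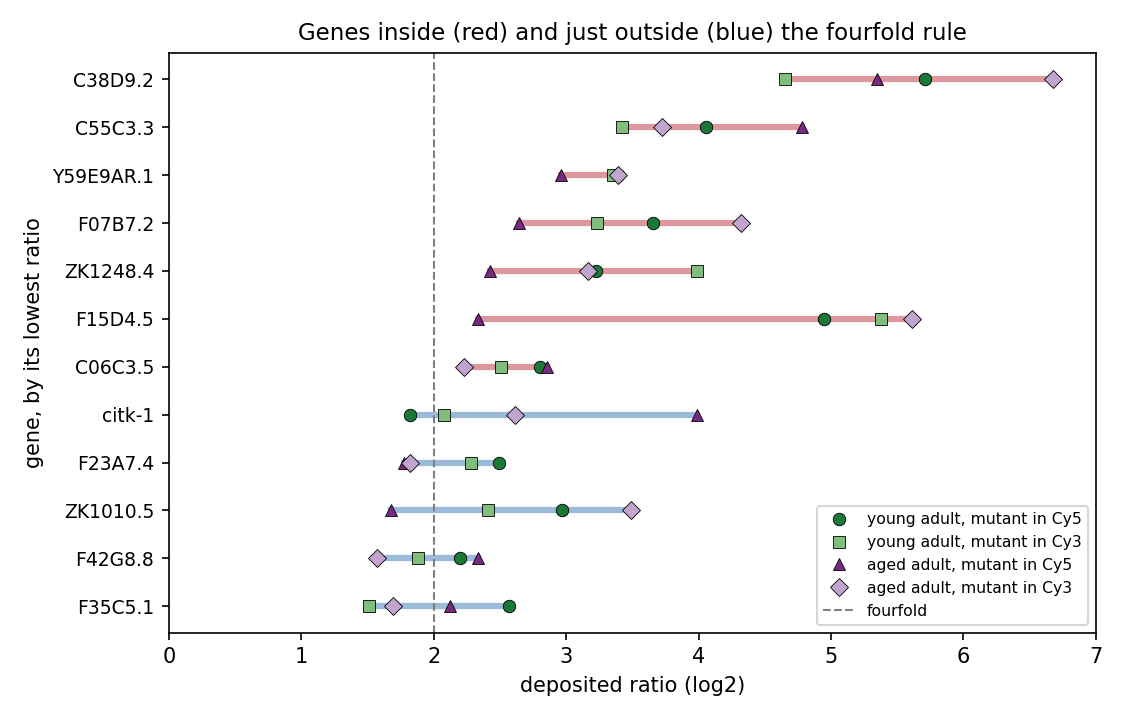
Deposited log2 ratio (horizontal axis) on each array for the 7 genes, joined by red bars, and for the 5 genes next to the threshold, joined by blue bars, ordered by their lowest ratio (vertical axis), with a dashed line at 4-fold. C38D9.2, C55C3.3 and Y59E9AR.1 keep their lowest values at 4.65, 3.42 and 2.96, while C06C3.5 at 2.23 and citk-1 at 1.82 lie on either side of the line.

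Likeness was measured as the Euclidean distance over the 4 log2 ratios from the median profile of the 7 genes, which was 3.65 and 3.42 in young and 2.85 and 3.72 in aged adults. Y59E9AR.1 was the nearest of the 7 to it at 0.44, and C38D9.2 the farthest at 4.55. Of the other genes, ZK1010.5 was nearest at 1.71, and it lay closer than C55C3.3, C06C3.5, F15D4.5 and C38D9.2. T02H6.9 followed at 2.32, xdh-1 at 2.72, F23A7.4 at 2.72 and citk-1 at 2.77. xdh-1, which encodes xanthine dehydrogenase, had 3.85 and 3.59 in young adults and 3.49 on the aged Cy3 array, but 0.16 on the aged Cy5 array. The gap between its aged orientations, 3.33 log2 units, was close to that of F15D4.5 and ran the same way. T02H6.9 had 3.59 and 3.32 in young and 2.49 and 1.44 in aged adults.

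The chromosomal surroundings of the 7 genes could be read only in part, through named probes. A neighbour without a named probe may still be on the arrays under an unnamed one. Of the 70 neighbours, 5 coding genes or pseudogenes on each side in WBcel235, 20 had a named probe, 13 had a ratio on any array and 5 on all 4. The 34 ratios of these neighbours had a median of 0.45 log2 units and ran from -1.79 to 3.39, and 2 of them were above 4-fold. Both belonged to C55C3.6, which lies directly beside C55C3.3 and is named here after its values were seen. C55C3.6 had 1.95 on the young Cy5 array and 2.58 and 3.39 on the aged arrays, that is 3.87-fold to 10.5-fold, and no ratio on the young Cy3 array. Both genes of this pair were thus high on the 3 arrays where both had a ratio. C55C3.4, also on that side at position -3, had 0.67, 0.59 and 1.27 on the same arrays.

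The neighbours of the other 6 genes reached at most 1.94 log2 units. F07B7.1, beside F07B7.2, had 0.59 and 0.84 in young and 1.94 and 0.30 in aged adults, below F07B7.2 on each array. C06C3.7, at position 2 from C06C3.5, was the only neighbour beyond 1 log2 unit on all 4 arrays, and its stages opposed each other, with 1.31 and 1.09 on the young arrays and -1.79 and -1.77 on the aged ones, while C06C3.5 was positive throughout. faxc-2 near F15D4.5 lay between -0.24 and 0.82, gtap-1 near ZK1248.4 between -1.25 and 0.17, and C55C3.1 on the other side of C55C3.3 between -0.71 and 0.94. The other measured neighbours of ZK1248.4, K05F1.10 and ZK1248.5, had a ratio on the aged Cy3 array alone, at 0.39 and 0.51. Next to C38D9.2, which lies among F-box genes of the fbxa family, only C38D9.5 and Y6G8.2 had any ratio, with 0.60 on 1 array for the former and -0.11 and -1.75 for the latter. Y59E9AR.1 had 2 measured neighbours, Y59E9AR.2 at -1.79 on 1 array and F36H12.9 at -0.15 and -1.28.

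**Figure D4:**
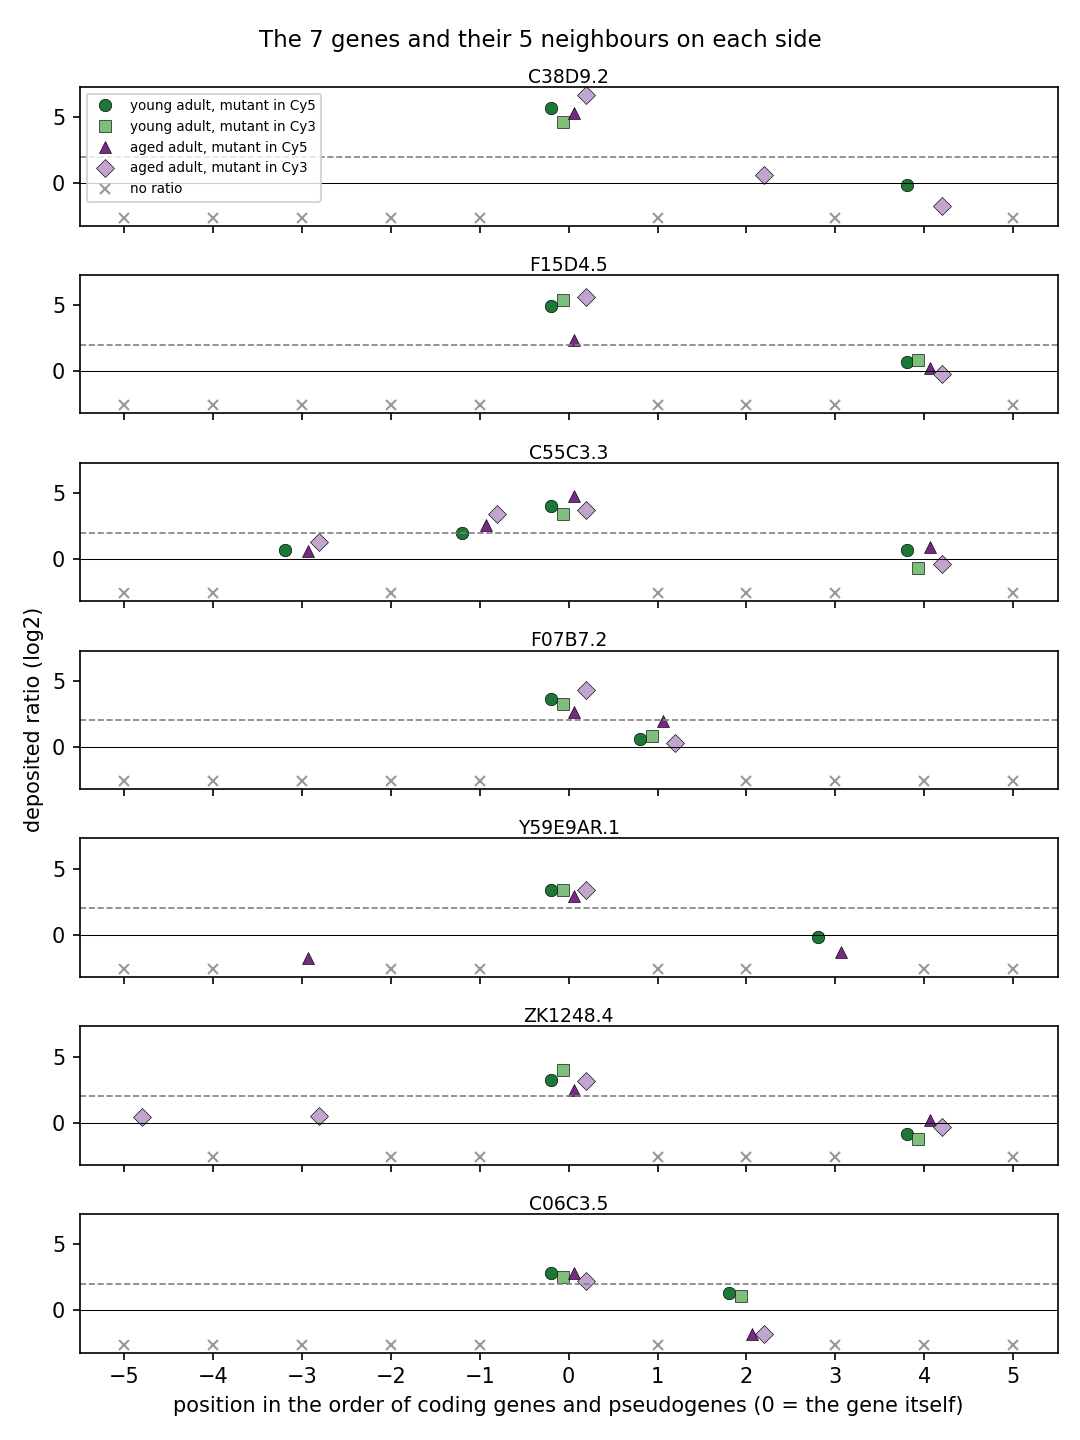
Deposited log2 ratio (vertical axis) of each of the 7 genes and its neighbours, by position in gene order (horizontal axis), with points by array. Each of the 7 is at position 0 with 5 coding genes or pseudogenes on each side, and a dashed line is at 4-fold. A cross marks a neighbour that had no named probe or whose named probe had no ratio. C55C3.6, at position -1 beside C55C3.3, is the one neighbour with points above the line, at 2.58 and 3.39.

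Genes of the small RNA machinery were mostly out of reach. Of 75 listed gene names of Argonaute, polymerase, mutator and nuclear silencing pathways, 2 had a named probe. znfx-1, which encodes a helicase of germ granules, had a ratio on none of the arrays, and simr-1, which encodes a Tudor domain protein acting after piRNAs, had one on all 4. The log2 ratios of simr-1 were -0.32 and -0.66 in young and 3.36 and 0.45 in aged adults, so it was above 4-fold on the aged Cy5 array only. Of 11 listed pid names, for genes of piRNA-dependent silencing, 4 matched a named probe; these had ratios on all 4 arrays, and 0 were beyond 4-fold on all of them in either direction. pid-3, which encodes a subunit of a complex that makes piRNAs, had -0.27 and -0.46 in young and 3.32 and 1.28 in aged adults. The means of simr-1 and pid-3 were 0.71 and 0.97 log2 units, and those of pid-2, pid-4 and pid-5 were -0.066, 0.18 and -0.43. The median was 0.087 over all 2222 genes and 3.46 over the 7 genes. cde-1 itself had no named probe, so its own ratio was not analysed here.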

How the data were processed

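Total RNA of dissected gonads was copied to cDNA with random primers, and a part of every cDNA was labelled with each dye, per the labels' protocols. The deposited table held 1 value for each of 22562 probes and 4 arrays. Per the submitters' processing notes Agilent Feature Extraction was used; for its version, background correction and dye normalization, nothing is given in the sources used here. As is usual for that program, the deposited values were read as log10 ratios; log2 ratios are these times 3.32. Scanner signals were not used to check the base, and sizes would be smaller by that factor were it log2. Values of exactly 0, 43.7% to 52.2% of a column, were taken as spots without a ratio.

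Of the probes, 7718 had 1 gene symbol and are called named, and 7691 of these matched WBcel235 by gene identifier. The other 14844, without a symbol or with more than 1, are called unnamed. The build of the array design is unknown here, so no coordinates are given. Probes of a gene were averaged, orientations were averaged within a stage, and stages were averaged. Computation used Python 3.11.15 and pandas 2.3.3 and was tested on simulated data. No statistical test was made, since the ratios chose the genes. The members and lists were chosen with earlier results of these data known. Named besides the 7 are the 5 genes just outside, the 5 nearest profiles, neighbours beyond 1 log2 unit on all arrays and pathway genes with 4 ratios. Other neighbours with a ratio, genes that entered without 1 array, and genes named only for their position or lack of a ratio (wago-5, his-53, his-28, C06C3.13 and znfx-1) fall outside that rule and were named after the values were seen. Protein and promoter comparisons that had been planned were not run. Alternatives were other scalings, readings of the sign and log base, other thresholds and leaving out 1 array.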

Additional observations from a re-analysis of the deposited data

How the results depend on the processing

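The count of 7 genes above 4-fold on all 4 arrays stayed at 7 after centring the arrays. It was 5 after quantile normalization, 10 at 3-fold and 6 at 5-fold. Centring and scaling gave 4, which were C38D9.2, C55C3.3, Y59E9AR.1 and citk-1; the cause was not tested. Every probe, unnamed ones included, gave 24, since more features were counted. The count was 0 with swapped arrays turned and 0 with the values read as log2. Leaving out 1 array gave 8 to 11, with fewer arrays to pass. The median of the 7 mean log2 ratios, 3.46, was 3.69 after scaling, -0.098 with swapped arrays turned, 1.04 read as log2, and 3.17 to 3.73 leaving out 1 array. With swapped arrays turned, the means were -0.066 for C38D9.2, -0.93 for F15D4.5, -0.31 for F07B7.2, -0.098 for Y59E9AR.1 and -0.38 for ZK1248.4, by the construction of that reading. Of 70 single-gene values over 10 settings, 47 moved by less than the SD between stages, 18 by more and 5 reversed. That SD differs between genes and is no measure of error between repeats, so the 47 are not all small shifts. F15D4.5, with an SD of 0.84, is among the 47 at 5.39 without the aged Cy5 array and at 3.75 without the aged Cy3 array. The 18 include all 7 genes read as log2, where each value shrinks by a fixed factor. They also include F07B7.2 under centring, scaling, quantile normalization and each left-out array, since its SD between stages was only 0.025. The number of the 7 genes with an aged ratio above the young one, 3, was 2 to 4 leaving out 1 array, a setting chosen after seeing the data. No paired analysis was possible because the 7 genes, chosen on these ratios, were given no test into which a replicate block could enter; each ratio already sets mutant beside wildtype of its stage. Which ratios come from dim spots is unknown, as spot signals were not used here.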
